A study of Mus musculus with 29 samples.

Results

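The comparison described here is the lasting effect of neonatal genistein in the pregnant mouse uterus: the difference between genistein-exposed (GEN) and control (CON) uteri, averaged with equal weight over 4 days of early pregnancy. All 29 arrays of the series entered it, so its members are 29 of 29 samples. CD-1 female mice, an outbred stock, had received genistein at 50 mg/kg/day (GEN) or the corn oil vehicle (CON) on postnatal days 1 to 5, and whole uteri were taken during early pregnancy, with GD for gestation day. There were 4 GEN and 3 CON arrays on GD1.5, 3 GEN and 3 CON on GD3.5, 4 GEN and 4 CON on GD4.5, and 4 GEN and 4 CON on GD5.5. The labels do not give the age at collection, and they do not say whether an array holds 1 uterus or a pool or whether arrays come from separate animals, so p-values measure the spread between these arrays. A whole uterus mixes glands, lining epithelium, stroma, muscle, vessels and blood cells, and fewer cells of a type and less RNA per cell cannot be told apart in it.

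Genistein is a plant isoflavone that binds estrogen receptors. In the mouse, uterine glands form after birth, and the forkhead factor FOXA2 is needed for that. In the adult, the glands secrete products needed for implantation. The series title names failed implantation, uterine patterning and gland formation as its subject. An average over days gives 1 difference per gene over the days before, during and after embryos attach, and does not by itself show that the difference was present on each day.

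Each gene was read from its brightest probe as log2 signal minus the 75th percentile of that array, and 23349 genes had a probe well above background on at least 3 of the 29 arrays. With 1 limma fit of 8 group means, 243 genes (1.04%) passed an adjusted p of 0.05 for the averaged difference, and these are called below. Of them 80 were higher in GEN (0.343% of genes tested) and 163 lower (0.698%). The median difference over all tested genes was -0.02 on the log2 scale. The direction was shared by all 4 days for 214 called genes (0.917%), of which 72 were higher (0.308%) and 142 lower (0.608%). Only 34 of the 243 were also called on 1 or more single days in the same fit, and 209 were called on none. With normexp background correction in place of the scanner's processed signal, 135 genes were called, 71 higher and 64 lower. Of the named genes 24 lost their call with it and kept their direction, among them Klra6 (-1.10, adjusted p = 0.115), Klra5, Klri2, Ttr, Hapln2, Tpsab1, Tpsg1, Mug2, Cyp3a25, Rptoros, Lgr5, Calca, Trhr, Brinp3 and Itprid1. A further 3, Sftpc, Zfp395 and 5031434C07Rik, lost it and changed sign.

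The 4 days were unequal in size, though a difference between days did not reach the threshold for any single gene. Among genes called lower, the median difference was -1.28 on GD1.5, -1.18 on GD3.5, -1.10 on GD4.5 and -0.41 on GD5.5. Among genes called higher it was 1.94, 1.56, 0.72 and 1.15 on the same days. The weakest day was GD5.5 for 121 called genes and GD4.5 for 59, and 21 called genes had the opposite sign on GD5.5. A moderated F test in limma for a GEN minus CON difference that varied between days called 0 of 23349 genes (0%), with 1293 genes at an unadjusted p under 0.05, 72 of them among the 243, and a smallest adjusted p of 0.11. Fitted on GD1.5 and GD3.5 alone, 122 genes were called, and on GD4.5 and GD5.5 alone, 21. No slide or scan date was shared between the GD1.5 and GD3.5 arrays and the GD4.5 and GD5.5 arrays. The array 75th percentile ran from 1490 to 1840 on the first pair of days and from 734 to 995 on the last pair. A difference between early and late days therefore cannot be told apart from one of slide, scan or brightness.

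**Figure D1:**
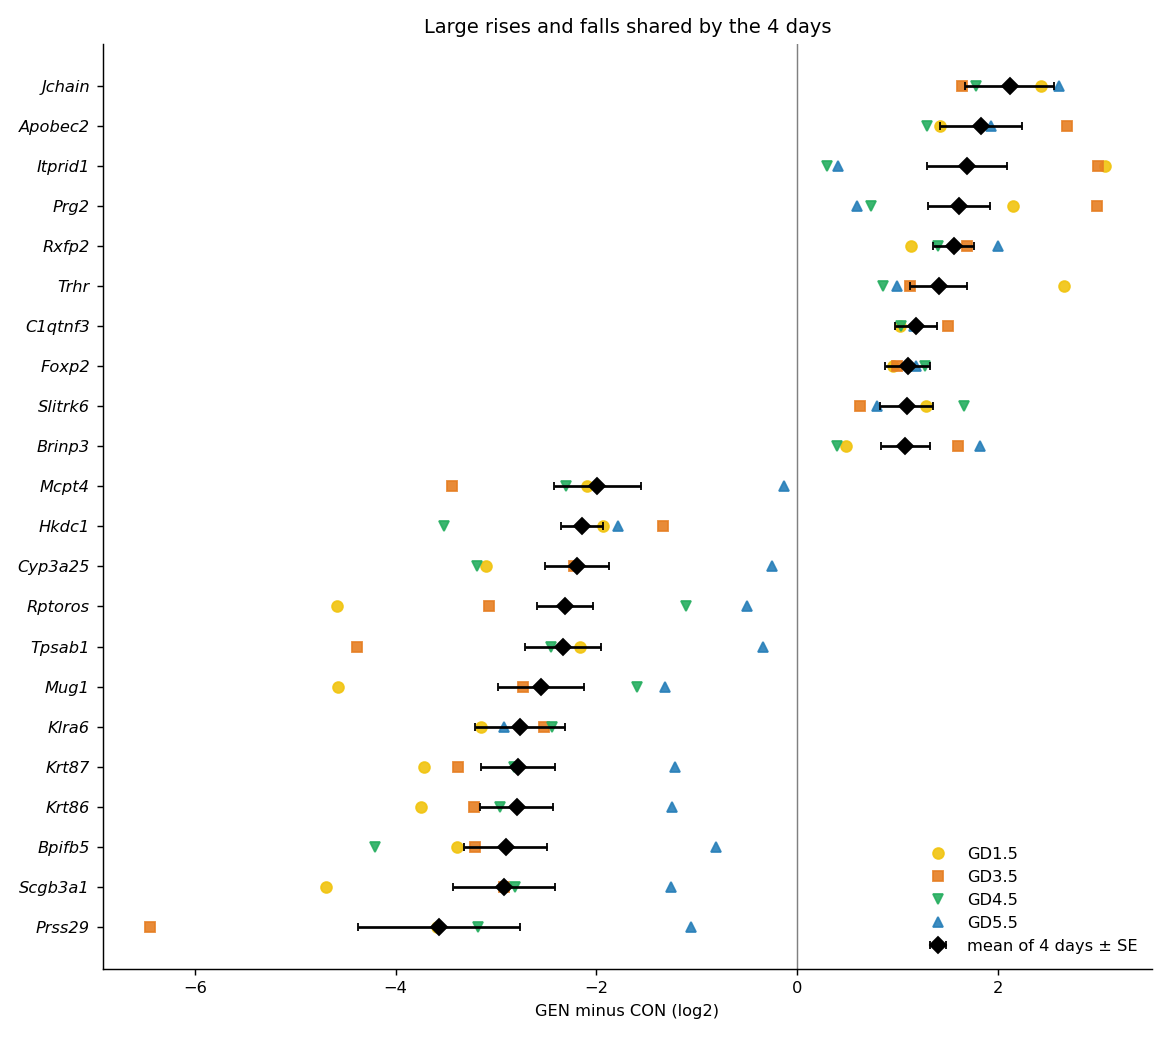
GEN minus CON difference (log2, x axis) for called genes whose sign held on all 4 days, 10 of the 12 that rose most and the 12 that fell most, 1 gene per row, among genes with a RefSeq symbol other than a clone or RIKEN code and at least 3 arrays of each exposure well above background. Diamonds are the mean of the 4 days with its standard error and coloured marks the single days. The GD5.5 mark is nearest to 0 for most of the falls, while Klra6, Foxp2 and C1qtnf3 are more even over the days. The GD1.5 and GD3.5 marks of Klra6 rest in part on 1 high CON array each.

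Among 11 tested regulators associated with the posterior reproductive tract 2 were called, both higher (18.2%, against 1.04% of all genes). Eya1, a transcriptional coactivator, averaged 0.59 (SE 0.121, adjusted p = 0.012), with day values of 0.83, 0.64, 0.89 and -0.01, so its GD5.5 value was near 0. Its second probe, well above background on 21 arrays, averaged 0.23. With the mean over all probes of a gene, Eya1 averaged 0.41 and was not called (adjusted p = 0.103). The median of this list was 0.05, and Pitx1 (0.63), Eya2 (-0.59), Hoxa13 (-0.26) and Trp63 (0.05) were among the 9 not called. Of 26 tested Hox genes, the body axis regulators, only Hoxa7 was called (3.85%), at 0.62 (SE 0.139, adjusted p = 0.0242), and Hoxa9, Hoxa10 and Hoxa11 averaged 0.18, -0.06 and -0.05. Hoxa7 was higher within all 10 sets of arrays that shared a slide and a day and held both exposures (slide-and-day sets), and lost its call without any 1 of 3 arrays.

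Large rises included receptors and secreted factors. Rxfp2 encodes the receptor for the hormone INSL3. In GEN uteri Rxfp2 read -0.80, -1.03, -0.47 and -1.36 on GD1.5, -1.65, -2.01 and -1.96 on GD3.5, -2.49, -2.65, -3.02 and -1.17 on GD4.5 and -2.91, -2.57, -2.44 and -3.95 on GD5.5. In CON uteri Rxfp2 read -2.37, -1.80 and -1.99 on GD1.5, -4.30, -3.33 and -3.06 on GD3.5, -3.55, -3.87, -3.72 and -3.78 on GD4.5 and -5.30, -5.49, -5.18 and -3.92 on GD5.5. GEN arrays lay above CON arrays on the first 3 days, and on GD5.5 the lowest GEN array fell just under the highest CON array. Rxfp2 averaged 1.56 (SE 0.201, adjusted p = 1.74e-04) and was largest on GD5.5.

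C1qtnf3 encodes a secreted protein of the C1q and TNF related family. In GEN uteri C1qtnf3 read 1.45, 1.61, 1.19 and 0.55 on GD1.5, 0.07, 0.63 and 0.70 on GD3.5, -0.84, -1.82, -1.72 and 0.04 on GD4.5 and -3.63, -2.12, -1.74 and -2.98 on GD5.5. In CON uteri C1qtnf3 read 0.65, 0.10 and -0.24 on GD1.5, -1.09, -0.97 and -1.04 on GD3.5, -1.63, -2.90, -1.71 and -2.25 on GD4.5 and -4.10, -4.08, -3.27 and -3.68 on GD5.5. The groups overlapped on all days but GD3.5. Its average was 1.18 (SE 0.213, adjusted p = 0.00401), with day values of 1.03, 1.50, 1.04 and 1.17. Foxp2, a forkhead transcription factor, ranged from -4.48 to -1.45 (median -1.96) over the 15 GEN arrays, against -6.03 to -2.38 (median -2.98) over the 14 CON arrays. The pooled ranges overlap, and Foxp2 was higher within all 10 slide-and-day sets, averaging 1.10 (SE 0.227, adjusted p = 0.013). Trhr, the thyrotropin-releasing hormone receptor, averaged 1.41, with 12 of 15 GEN and 7 of 14 CON arrays well above background. Slitrk6 and Brinp3 averaged 1.09 and 1.08 and lost their call without any 1 of 20 and 10 arrays. Itprid1 was higher by 3.06 on GD1.5 and 3.00 on GD3.5, but no GD4.5 or GD5.5 array had it well above background, and it lost its call without any 1 of 14 arrays. Apobec2 averaged 1.83 and lost its call without any 1 of 3 arrays.

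Of 21 tested extracellular matrix genes 19 were higher in GEN, against 9933 of all 23349 tested genes, with a list median of 0.12. Only Col12a1, a fibril-associated collagen, was called (4.76%, against 1.04% of all genes), at 0.50 (SE 0.084, adjusted p = 0.00211). It was higher within all 10 slide-and-day sets and was 0.12 on GD5.5. Of 15 tested protease inhibitors 10 were lower, against 13416 of all 23349 tested genes, with a list median of -0.11. Calls were made for 26.7% of them, against 1.04% of all genes. Mug1, Mug2 and Wfdc3 were called lower. Slpi, an inhibitor of leukocyte proteases, was called higher, at 0.90 (SE 0.196, adjusted p = 0.0195), but its second probe averaged 0.19.

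Genes of glandular epithelium fell. Of 10 tested gland epithelium genes 9 were lower and 6 were called (60%, against 1.04% of all genes), all lower, with a list median of -1.52 against -0.02 for all tested genes. The list was chosen with earlier results of these data known, so this share is a description. The list's day medians were -1.82, -2.36, -1.69 and -0.54 from GD1.5 to GD5.5. Summarised per array as the median of its genes relative to that day's CON mean, the list lay between -3.12 and 0.19 over GEN arrays and between -0.34 and 0.32 over CON arrays. By contrast, 10 of 11 tested simple epithelium genes were lower but none was called in limma, and their median was -0.16. Krt18, a keratin of simple epithelium, averaged -0.33 (SE 0.134, adjusted p = 0.348) and Krt8 -0.12 (SE 0.193, adjusted p = 0.975). The part of the whole epithelium in the fall of gland genes was not tested beyond these values.

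Foxa2 is the gland-forming factor named above. In GEN uteri Foxa2 read 0.48, -1.16, 0.15 and 0.59 on GD1.5, -0.75, 0.74 and 0.92 on GD3.5, -0.89, -1.49, -0.42 and -0.07 on GD4.5 and -1.87, -2.46, -0.89 and -1.84 on GD5.5. In CON uteri Foxa2 read 2.05, 1.72 and 1.79 on GD1.5, 1.83, 1.80 and 1.70 on GD3.5, 1.26, 0.72, 1.13 and 1.05 on GD4.5 and -1.59, -1.17, -0.99 and -1.18 on GD5.5. GEN arrays lay below all CON arrays on GD1.5, GD3.5 and GD4.5, and on GD5.5, when the CON level itself was low, the highest GEN array exceeded every CON array. Foxa2 averaged -1.40 (SE 0.201, adjusted p = 4.84e-04).

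Spdef encodes an ETS factor of mucus-secreting epithelium. In GEN uteri Spdef read -5.84, -7.36, -5.20 and -4.98 on GD1.5, -6.33, -4.94 and -4.77 on GD3.5, -4.58, -4.46, -4.13 and -3.90 on GD4.5 and -4.21, -4.29, -3.48 and -3.73 on GD5.5. In CON uteri Spdef read -3.03, -3.23 and -3.14 on GD1.5, -2.79, -2.51 and -3.30 on GD3.5, -2.14, -3.12, -2.55 and -2.75 on GD4.5 and -3.31, -3.08, -3.67 and -3.46 on GD5.5. The groups were apart on the first 3 days and overlapped on GD5.5. Spdef averaged -1.84 (SE 0.205, adjusted p = 2.62e-05), lower within all 10 slide-and-day sets. Sox9, a transcription factor of glandular and progenitor epithelium, averaged -1.51 (SE 0.235, adjusted p = 0.00105), and its 2 other probes averaged -1.17 and -1.59. Ttr, the thyroid hormone carrier transthyretin, was not well above background on any of 15 GEN arrays and was so on 12 of 14 CON arrays, giving a level at least 4.18-fold lower (adjusted p = 6.00e-06). With normexp correction Ttr averaged -0.11 (adjusted p = 0.778), so the bound holds for the scanner's processed signal alone.

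Prss29 encodes a gland-secreted serine protease of implantation. In GEN uteri Prss29 read -1.12, -1.25, -2.20 and -1.79 on GD1.5, -5.66, -5.30 and -5.98 on GD3.5, 3.55, 3.46, 0.96 and -2.08 on GD4.5 and 4.90, 3.74, 5.15 and 5.35 on GD5.5. In CON uteri Prss29 read -5.04, 5.08 and 5.95 on GD1.5, 2.03, -0.07 and 0.45 on GD3.5, 3.55, 6.08, 3.78 and 5.20 on GD4.5 and 5.18, 6.45, 5.84 and 5.91 on GD5.5. GEN arrays lay below all CON arrays on GD3.5 and, by a narrow margin, on GD4.5. On GD1.5 the lowest CON array read under the 4 GEN arrays, and on GD5.5 the groups overlapped. Prss29 averaged -3.57 (SE 0.808, adjusted p = 0.0277) and lost its call without any 1 of 6 arrays. Its neighbour Prss28 averaged -3.49 (SE 1.02, adjusted p = 0.115), a similar size that did not pass the test. Wfdc3, a whey acidic protein domain gene, averaged -1.52 (SE 0.269, adjusted p = 0.00349) on its brightest probe, but its second probe, also well above background on all 29 arrays, averaged -0.03.

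Other secreted products fell with them. Scgb3a1, a secretoglobin of secretory epithelia, ranged from -5.06 to 3.17 (median -3.39) over the 15 GEN arrays, against -3.15 to 4.33 (median 0.17) over the 14 CON arrays. Its average was -2.92 (SE 0.508, adjusted p = 0.0031). Calca, the gene of calcitonin and its related peptide, averaged -1.84 (SE 0.444, adjusted p = 0.042) and lost its call without any 1 of 21 arrays. Its second probe, well above background on all 29 arrays, averaged -0.60. Calca was the 1 called of 20 tested genes of progesterone response and attachment (5%, against 1.04% of all genes). The steroid receptors were not called: Pgr, the progesterone receptor, averaged -0.03 (SE 0.0952, adjusted p = 0.998) and Esr1, the estrogen receptor, -0.03 (SE 0.0914, adjusted p = 0.994). Of 20 tested estrogen response genes none was called in limma, with a list median of -0.07, and Ltf, a classical estrogen target, averaged -0.08 (SE 0.717, adjusted p = 0.998).

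Of 35 tested Wnt signalling genes 2 were called, both lower (5.71%, against 1.04% of all genes), and the list median was -0.01. Sp5 is a zinc finger factor induced by Wnt signals. In GEN uteri Sp5 read -1.15, -2.35, -0.80 and -2.05 on GD1.5, -4.36, -3.40 and -3.22 on GD3.5, -4.50, -4.40, -4.18 and -2.40 on GD4.5 and -4.02, -4.95, -5.11 and -4.46 on GD5.5. In CON uteri Sp5 read -0.26, -0.08 and -0.23 on GD1.5, -1.80, -1.07 and -1.97 on GD3.5, -1.39, -1.98, -1.63 and -1.12 on GD4.5 and -3.79, -3.70, -3.19 and -3.26 on GD5.5. GEN arrays lay below CON arrays on each of the 4 days. Sp5 averaged -1.73 (SE 0.212, adjusted p = 9.38e-05). Lgr5, the receptor for R-spondins, averaged -1.13 (SE 0.258, adjusted p = 0.03) and lost its call without any 1 of 11 arrays. The ligands Wnt4, Wnt5a, Wnt7a and Wnt11 averaged 0.37, 0.10, -0.01 and 0.50 and were not called.

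Separation of the 2 exposures on all 4 days was rare. The GEN arrays lay above all CON arrays on every day for 1 gene (0.00428% of genes tested) and below on every day for 7 (0.03%): Hkdc1, Sp5, Clcn2, Krt86, Krt87, Klra6 and Sbspon. The count of 8 became 14 without the first GD3.5 GEN array and 16 without the fourth GD5.5 GEN array. Hkdc1 encodes a hexokinase domain protein. In GEN uteri Hkdc1 read -5.61, -6.20, -6.01 and -4.67 on GD1.5, -5.03, -5.35 and -5.42 on GD3.5, -6.31, -5.88, -5.30 and -4.99 on GD4.5 and -4.48, -4.86, -4.66 and -3.23 on GD5.5. In CON uteri Hkdc1 read -3.66, -3.10 and -4.32 on GD1.5, -3.86, -3.32 and -4.60 on GD3.5, -2.56, -2.14, -2.26 and -1.43 on GD4.5 and -2.77, -2.77, -2.65 and -1.88 on GD5.5. The gap was widest on GD4.5. Hkdc1 averaged -2.15 (SE 0.209, adjusted p = 5.09e-06), or 4.42-fold lower.

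Clcn2, a chloride channel, had the smallest averaged difference of these 7 genes. In GEN uteri Clcn2 read 1.46, 1.08, 1.04 and 1.43 on GD1.5, 0.94, 0.98 and 1.04 on GD3.5, 0.92, 0.68, 1.05 and 1.35 on GD4.5 and 1.00, 0.92, 1.44 and 1.45 on GD5.5. In CON uteri Clcn2 read 1.98, 1.90 and 2.04 on GD1.5, 1.59, 1.38 and 1.68 on GD3.5, 1.86, 1.41, 1.81 and 1.55 on GD4.5 and 1.78, 1.78, 1.67 and 1.71 on GD5.5. Each day's GEN arrays stayed below the CON arrays by a small margin. Clcn2 averaged -0.62 (SE 0.0768, adjusted p = 1.02e-04), and its second probe averaged -0.65. Sbspon, a gene of a secreted thrombospondin-repeat protein, averaged -1.13 (SE 0.194, adjusted p = 0.00273).

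**Figure D2:**
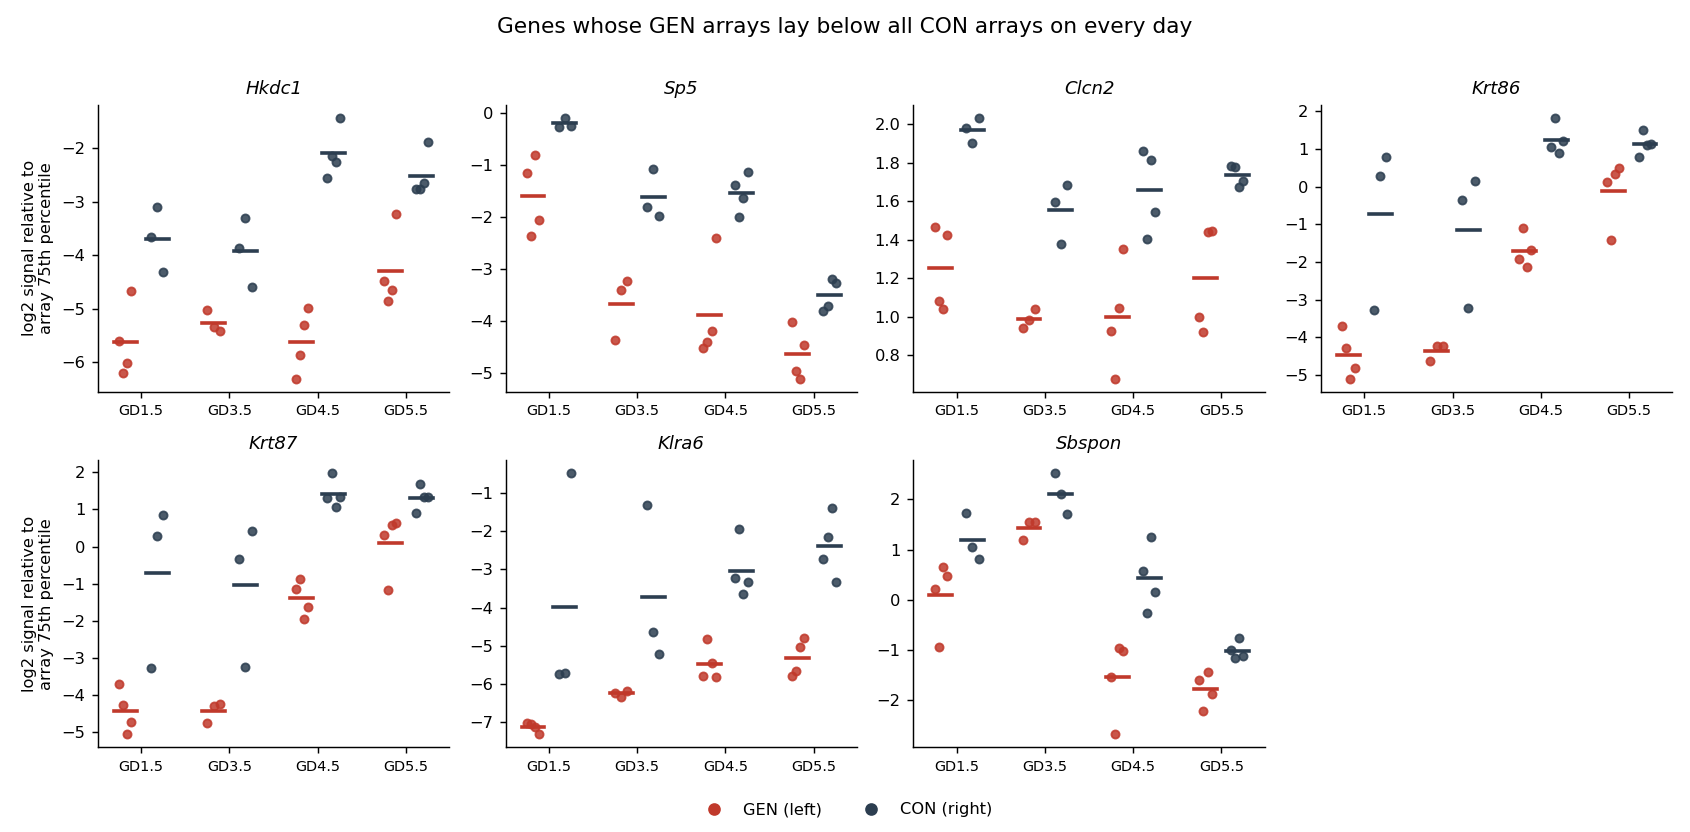
Log2 signal relative to the array's 75th percentile (y axis) on each array, by gestation day (x axis), for the 7 genes whose GEN arrays (red, left) lay below all CON arrays (dark, right) on every day. Points are arrays and bars group means. In Krt86 and Krt87 a single CON array on GD1.5 and on GD3.5 lies close to the GEN arrays, and in Klra6 all but 1 CON array do on those days.

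Called genes of the same direction also lay side by side. With called genes joined when their probes started within 200 kb, and at least 2 RefSeq symbols required, there were 12 groups on 8 chromosomes, all of genes that fell. Leaving out the first GD3.5 CON array gave 7 groups, and leaving out the fourth GD5.5 GEN array gave 22, of which 2 held genes that rose. With replicate number as a block there were 3 groups, and 27 named genes lost their call, among them Prss29, Tpsg1, Cma1, Mcpt4, Klra5, Klri2, Mug2, Bpifb1, Pbld1, Tmem176a and Tmem176b. Several groups were gene families. The probes of 1 of the 24 gene pairs within the groups shared a run of 15 bases or more, and it is shown next.

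The hair keratin genes Krt86 and Krt87, on chromosome 15, were that pair. Their 60-base probes share 20 bases, in capitals, at the end of one and the start of the other, so their transcripts may not be measured apart.
Krt86 probe: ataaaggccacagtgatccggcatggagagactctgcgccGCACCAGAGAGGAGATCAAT
Krt87 probe: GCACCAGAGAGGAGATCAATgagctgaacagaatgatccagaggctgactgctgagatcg

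In GEN uteri Krt86 read -3.71, -4.30, -5.10 and -4.81 on GD1.5, -4.62, -4.24 and -4.23 on GD3.5, -1.93, -1.09, -2.14 and -1.69 on GD4.5 and 0.12, -1.41, 0.33 and 0.49 on GD5.5. In CON uteri Krt86 read -3.26, 0.28 and 0.79 on GD1.5, -0.35, -3.21 and 0.14 on GD3.5, 1.07, 1.83, 0.90 and 1.20 on GD4.5 and 0.78, 1.50, 1.10 and 1.14 on GD5.5. GEN arrays lay below CON arrays on every day, though 1 CON array on GD1.5 and 1 on GD3.5 read over 2 log2 units below the rest of their group. Krt86 at chr15:101463017-101463076 averaged -2.79 (SE 0.362, adjusted p = 1.74e-04) and Krt87 at chr15:101419766-101419825 averaged -2.78 (SE 0.371, adjusted p = 2.19e-04). Coordinates here and below are those of the scanner files, in mouse build mm7 (NCBI build 35). The gene tested between them was not called.

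On chromosome 17 the gland protease Prss29 sat at the edge of the mast cell tryptases. Prss29, Tpsab1, Tpsb2 and Tpsg1 were the 4 tested genes of a 53.3 kb stretch (chr17:23504096-23557404) and were all called lower, and Prss28 lies just outside it. Tpsab1, a tryptase stored in mast cell granules, was well above background on 6 of 15 GEN and 12 of 14 CON arrays. It averaged 5.05-fold lower (averaged difference -2.33 (SE 0.379, adjusted p = 0.00155)), a fold that includes arrays not well above background. Its day values were -2.17, -4.38, -2.45 and -0.34, and with normexp correction it averaged -0.45 (adjusted p = 0.422). Tpsb2 averaged -1.61 (SE 0.286, adjusted p = 0.00361) and Tpsg1 -1.16 (SE 0.263, adjusted p = 0.028), and both were above CON on GD5.5, by 0.29 and 0.56. The other 14 genes tested within 200 kb were not called, and Cacna1h, a calcium channel gene whose probe adjoins that of Tpsg1, averaged -0.01.

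A second mast cell pair lay on chromosome 14, where the chymases Cma1 and Mcpt4 averaged -1.60 (SE 0.35, adjusted p = 0.0205) and -1.99 (SE 0.431, adjusted p = 0.0194). On GD5.5 their values were 0.22 and -0.13, so the fall was not shared by that day. Each lost its call without 1 of the arrays. Of 12 tested mast cell and eosinophil genes 6 were called (50%, against 1.04% of all genes): Tpsab1, Tpsb2, Mcpt4, Cma1 and Kit, the stem cell factor receptor (-0.60), were lower, and Prg2, the eosinophil major basic protein, was higher at 1.61 (SE 0.309, adjusted p = 0.00673). Cpa3, a mast cell carboxypeptidase, averaged -1.55 (SE 0.4, adjusted p = 0.0626), and the eosinophil genes Epx and Siglecf averaged 0.53 and 0.60. The list's median was -0.39, with day medians of -0.56, -0.73, -0.76 and 0.19. Cell numbers were not measured, and their part in these falls was not tested.

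Receptor genes of natural killer cells formed a group on chromosome 6. Klri2, Klra5 and Klra6, of lectin-like receptor families, were called lower across 287 kb (chr6:129758442-130045499). In GEN uteri Klra6 read -7.02, -7.05, -7.14 and -7.31 on GD1.5, -6.24, -6.34 and -6.17 on GD3.5, -5.79, -4.82, -5.46 and -5.81 on GD4.5 and -5.80, -5.65, -5.03 and -4.79 on GD5.5. In CON uteri Klra6 read -5.75, -5.72 and -0.48 on GD1.5, -1.31, -4.63 and -5.22 on GD3.5, -3.22, -1.94, -3.64 and -3.33 on GD4.5 and -2.72, -2.16, -1.39 and -3.33 on GD5.5. GEN arrays lay below CON arrays on every day, but the CON arrays of GD1.5 and GD3.5 were widely spread, with 1 array of each day at least 3 log2 units above the others. Klra6 averaged -2.76 (SE 0.447, adjusted p = 0.00155), with 10 of 15 GEN arrays well above background. Its day values of -3.15, -2.52, -2.44 and -2.92 were among the most even of the called genes. Those of GD1.5 and GD3.5 rest in part on the 1 high CON array of each day. Klra5 averaged -1.76 (SE 0.294, adjusted p = 0.00211) and Klri2 -0.90 (SE 0.191, adjusted p = 0.0168). Of the 19 genes tested from 200 kb before to 200 kb after the group, 16 were lower. Klra21, at -1.27 (SE 0.321, adjusted p = 0.0556), had the smallest adjusted p of those not called. In the list of 11 tested T and NK cell genes 8 were higher and none was called in limma, with a median of 0.11.

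Murinoglobulins, broad protease inhibitors related to alpha-2-macroglobulin, also lie on chromosome 6. Mug1 and Mug2 and the predicted genes LOC640530 and NAP001160-001 were called lower across 510 kb (chr6:121760668-122270248), and all 6 genes tested there were lower. Mug1 ranged from -6.09 to -1.85 (median -3.74) over the 15 GEN arrays, against -5.07 to 1.53 (median -1.27) over the 14 CON arrays. It averaged -2.55 (SE 0.429, adjusted p = 0.00215), with day values of -4.58, -2.73, -1.59 and -1.32. Mug2 averaged -1.56 (SE 0.355, adjusted p = 0.0284) and lost its call without any 1 of 8 arrays, and A2m, alpha-2-macroglobulin itself, averaged -0.11 just outside the stretch.

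The other 7 groups were pairs. Bpifb1 and Bpifb5 on chromosome 2, secreted proteins of the BPI fold family, averaged -1.35 (SE 0.245, adjusted p = 0.00426) and -2.90 (SE 0.415, adjusted p = 4.74e-04). Pbld1 and Pbld2 on chromosome 10 averaged -1.18 (SE 0.256, adjusted p = 0.0205) and -0.86 (SE 0.128, adjusted p = 6.24e-04). The second probe of Pbld2, well above background on 27 arrays, averaged -0.34. Tmem176a and Tmem176b on chromosome 6, membrane protein genes, averaged -0.47 (SE 0.0976, adjusted p = 0.0143) and -0.33 (SE 0.0707, adjusted p = 0.0168). These 3 pairs were the only tested genes between their ends. The rest joined unlike genes: Degs2, a sphingolipid enzyme, with Wars, the tryptophanyl tRNA synthetase (-1.33 and -0.45), Sh3rf2 with Gm4013 (-1.30 and -0.32), Ssu2 with 5031434C07Rik (-0.85 and -0.57), and Sftpc, a surfactant protein, with Piwil2, a germline small RNA factor (-0.95 and -0.47). In these 4 stretches the genes tested in between were not called. Piwil2 and 5031434C07Rik lost their call without any 1 of 24 and 23 arrays, and the second probe of 5031434C07Rik averaged 0.01. On GD5.5 Piwil2 and 5031434C07Rik were higher in GEN, by 0.22 and 0.08. With normexp correction Bpifb1 (-0.27, limma adjusted p = 0.668), Pbld1, Pbld2, Sh3rf2, Gm4013, Ssu2, 5031434C07Rik, Sftpc and Piwil2 lost their call. Bpifb5, Tmem176a, Tmem176b, Degs2 and Wars kept theirs.

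**Figure D3:**
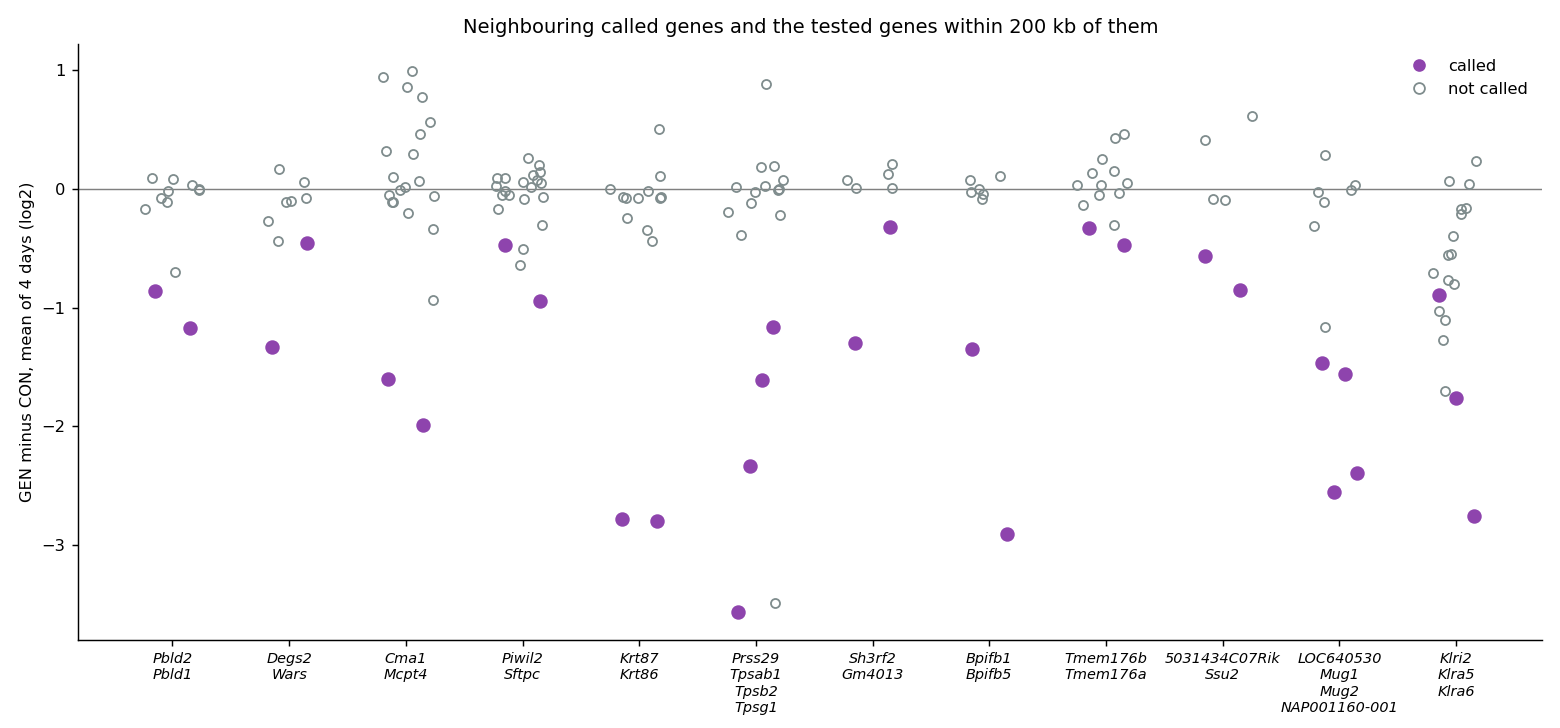
GEN minus CON difference averaged over 4 days (log2, y axis) for the genes tested in each of 12 groups of neighbouring called genes and up to 200 kb beyond (x axis, named by the called genes). Filled points are called and open points not. The lowest open point is Prss28, at -3.49, beside the chromosome 17 proteases, and several open points of the Klra group lie below -1.

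Runs of called genes that carry only clone, predicted or accession names were left out by the symbol requirement. With all names allowed, an alternative chosen after the values were seen, there were 23 groups, 15 lower and 8 higher. The 3 stretches described next were also chosen then, and each runs from its first called gene to its last. That choice raises the share called inside them, so these shares are descriptions and not tests. A run on chromosome 14 (chr14:38745869-40023342) held 13 tested genes, of which 8 were called lower, 61.5% against the 1.04% of all genes tested, and 12 were lower. Their averages ran from -3.63 to -2.45, with day medians of -3.21, -1.66, -3.73 and -3.48, so GD5.5 was not a weak day here. Of the 8, 1700001F09Rik averaged -3.39 (SE 0.537, adjusted p = 0.0015) and 7 had the same sign on all days, the exception being 1700049E17Rik1, at 0.53 on GD3.5. BC061237, whose coordinate lies on an unplaced sequence, averaged -3.29 (SE 0.458, adjusted p = 3.63e-04). Its probe matched that of LOC624633 over 50 of 56 aligned bases, and the probes NAP102637-1 and NAP113144-1 matched over 52 of 59. Both pairs are shown with the longest shared run in capitals, since such copies may be read by one another's probes.
LOC624633 probe: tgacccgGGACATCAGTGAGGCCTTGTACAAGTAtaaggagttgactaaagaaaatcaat
BC061237 probe: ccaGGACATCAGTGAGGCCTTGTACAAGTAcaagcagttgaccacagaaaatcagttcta
NAP102637-1 probe: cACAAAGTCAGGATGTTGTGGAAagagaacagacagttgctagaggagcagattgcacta
NAP113144-1 probe: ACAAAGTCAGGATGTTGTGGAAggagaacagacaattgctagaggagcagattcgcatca

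Nearly all immunoglobulin locus probes were higher in GEN. On chromosome 12 (chr12:110781031-113737877), within the heavy chain locus, 57 of 62 tested genes were higher, against 9933 of all 23349 tested genes. Calls were made for 21 (33.9%, against 1.04% of all genes), from 1.54 to 2.13, with day medians of 2.36, 1.84, 0.77 and 2.26. On chromosome 6 (chr6:68233198-70744399), within the kappa light chain locus, 59 of 59 tested genes were higher and 6 (10.2%) were called, from 1.87 to 2.29. Probes of such segments share sequence and are not separate measurements: 12 of 49 pairs within the groups with all names allowed shared 15 bases or more. Jchain, which links immunoglobulin chains into polymers and is made by plasma cells, averaged 2.12 (SE 0.444, adjusted p = 0.0152), with day values of 2.43, 1.65, 1.78 and 2.61. Of 9 tested B and plasma cell genes 8 were higher and Jchain was the 1 called (11.1%, against 1.04% of all genes). The list median was 0.46. Relative to each day's CON mean, that list's median ranged from -0.35 to 1.75 over GEN arrays and from -0.64 to 0.92 over CON arrays. Ms4a1, a B cell surface marker, averaged 0.57 (SE 0.407, adjusted p = 0.771). The share of plasma cells was not measured, and its part in these rises was not tested.

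**Figure D4:**
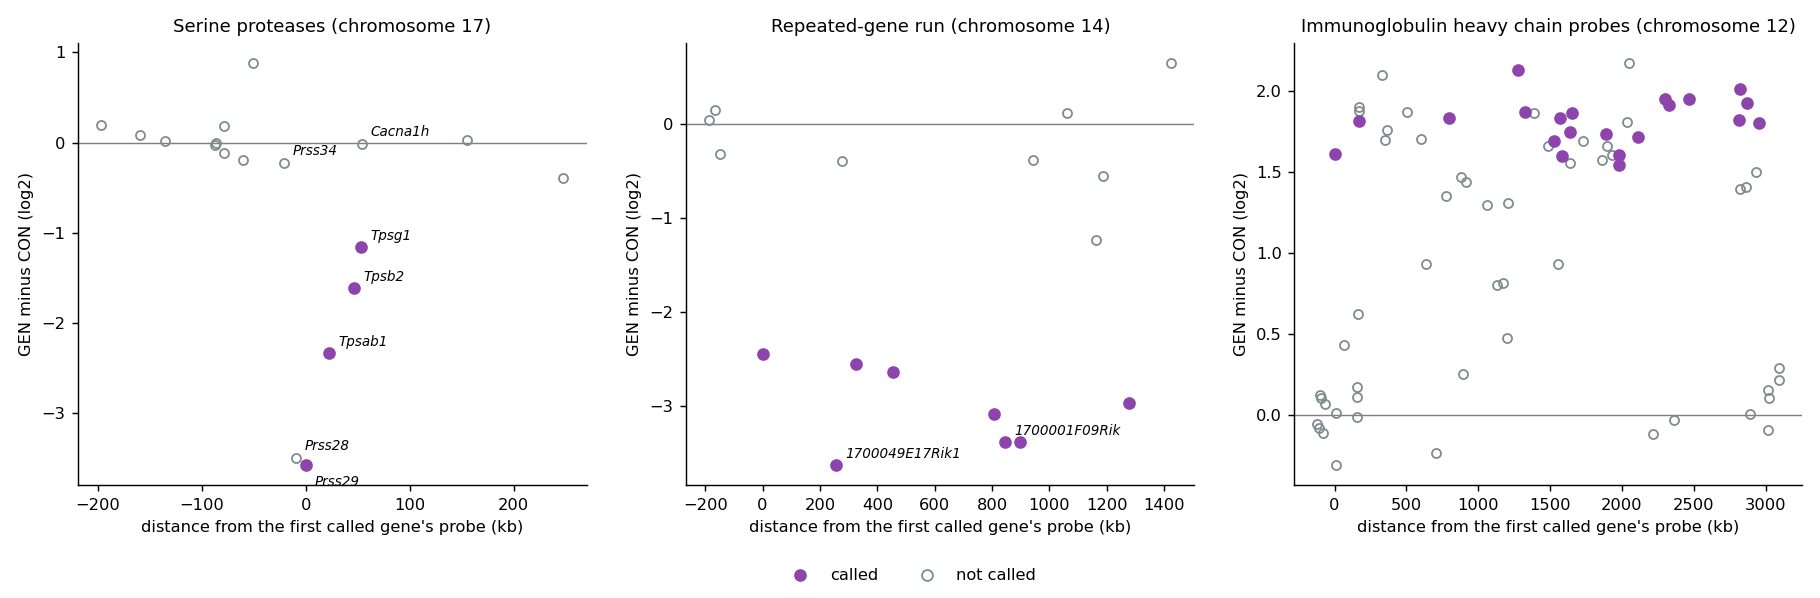
GEN minus CON difference averaged over 4 days (log2, y axis) against distance from the first called gene's probe (kb, x axis) in 3 stretches and 200 kb on each side. Filled points are called genes and open points genes not called. On chromosome 17, 4 neighbouring protease genes are called lower while Prss34 lies at -0.22, and the chromosome 14 and heavy chain runs mix called and uncalled probes over more than a megabase.

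Levels of lineages that a whole uterus can carry moved between arrays. All 9 tested neutrophil genes were higher, with a median of 0.88 and none called in limma, and the list's array median ran from -0.72 to 4.41 over GEN arrays and from -1.48 to 0.76 over CON arrays. Adipocyte genes, a sign of attached fat, had a day median of 2.41 on GD1.5 and -0.68 on GD3.5, and ran from -2.72 to 4.35 over GEN arrays and from -2.27 to 2.62 over CON arrays. Smooth muscle genes (10 tested, median 0.06) and endothelial genes (8 tested, median 0.01) had none called. Des, Acta2, Krt8 and Krt18, markers of muscle and of simple epithelium, were well above background on all 29 arrays. Their part in the results above was not tested.

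**Figure D5:**
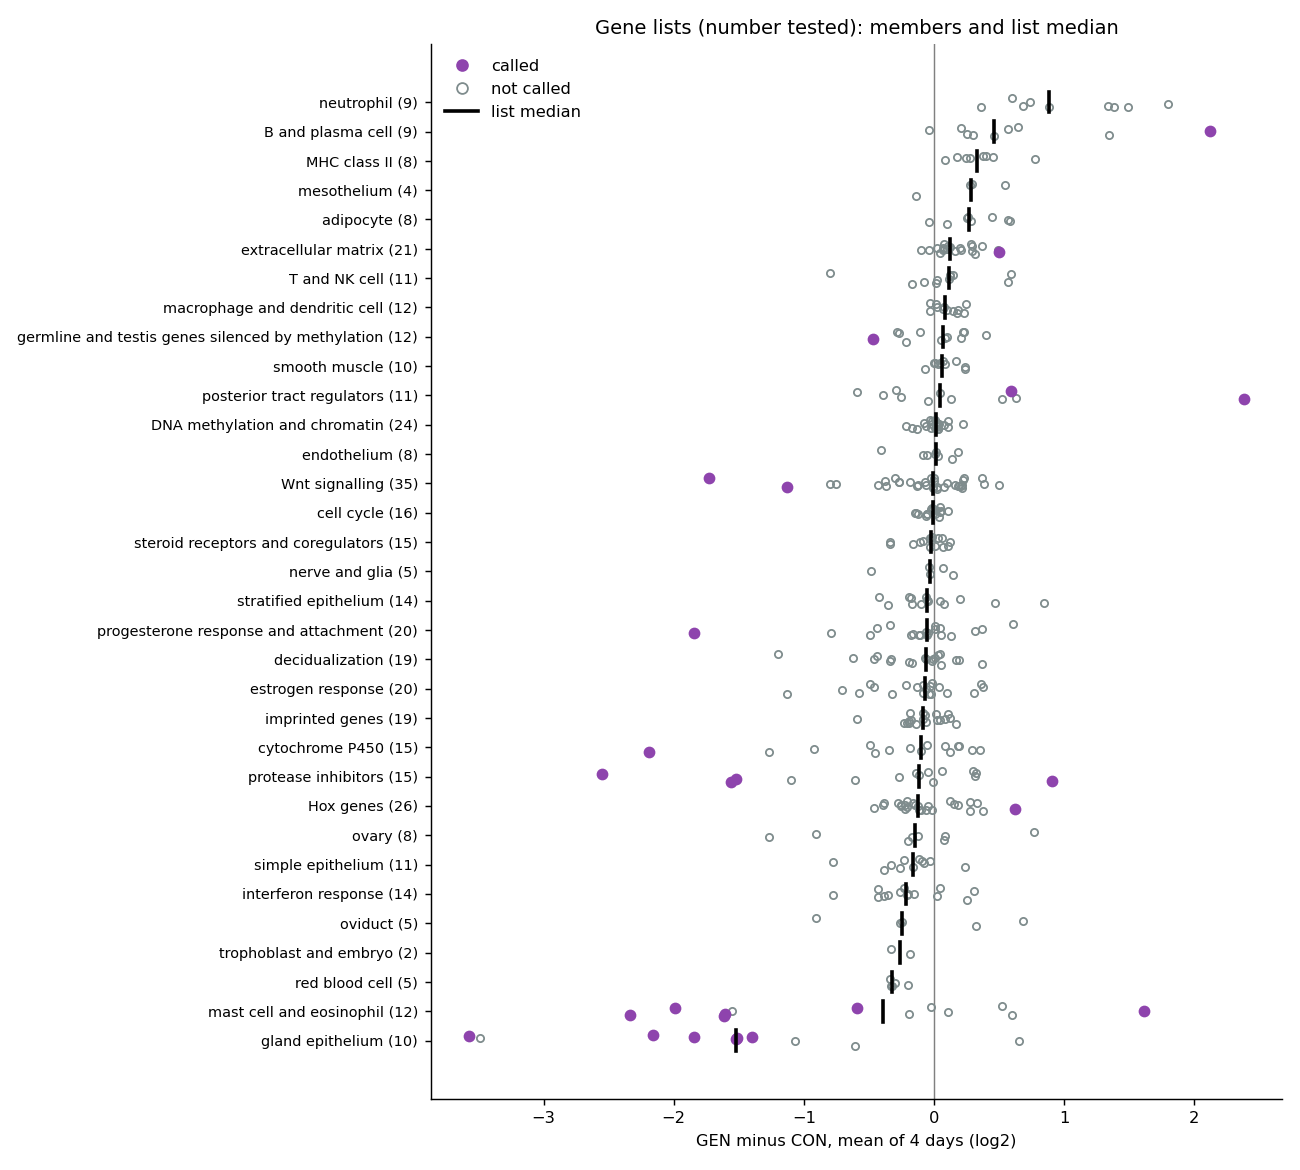
GEN minus CON difference averaged over 4 days (log2, x axis) for the members of 33 gene lists (rows, number tested in parentheses). Filled points are called members, open points members not called, and bars list medians. Gland epithelium has the lowest median, -1.52, and neutrophil genes the highest, 0.88.

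Of 415 tested genes on any list 25 were called, where 1.04% of all tested genes were. Of 24 tested genes of DNA methylation and chromatin none was called in limma, among them Dnmt3a (0.08), Ezh2 (0.03) and Hmgn5 (-0.21). Of 15 tested cytochrome P450 genes only Cyp3a25 was called (6.67%), at -2.19 (SE 0.319, adjusted p = 5.33e-04), lower within all 10 slide-and-day sets. Rptoros averaged -2.31 on the scanner's processed signal. It was well above background on 5 of 15 GEN and 10 of 14 CON arrays. None of them was from GD5.5, so no bound on its fold is given. With normexp correction Rptoros averaged -0.35 (adjusted p = 0.548). Hapln2, a hyaluronan link protein, was not well above background on any GEN array and on 10 CON arrays, and was at least 3.5-fold lower (adjusted p = 0.00925), against an average of -0.14 with normexp correction (adjusted p = 0.751). Sftpc and Zfp395 were likewise above background on no GEN array and on 3 CON arrays. For Sftpc neither exposure had such an array on GD3.5 or GD5.5, and for Zfp395 neither had one on GD4.5 or GD5.5. No bound on their folds is therefore given. Both averaged lower, but with normexp background correction the averages of both turned positive, at 0.12 and 0.19 (adjusted p = 0.77 and 0.72). The key genes Ihh and Wnt7a averaged -0.05 and -0.01.

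A smaller share of the promoters of called genes than of all tested genes was rich in CpG, a dinucleotide that can be methylated. RefSeq promoters (GRCm38.p6, 250 bases before to 50 after the start) were found for 30 of 80 genes called higher, 110 of 163 called lower and 14152 of 23349 tested, and a gene can have several. At least 15 CpG dinucleotides were present in 11 of 36 promoters of genes called higher (30.6%), 43 of 142 of genes called lower (30.3%) and 9632 of 17696 of all tested genes (54.4%), with medians of 6.5, 8 and 16. An estrogen response half-site, AGGTCA on either strand, was present in 8.33%, 18.3% and 13.9% of the same sets, and the full palindrome, GGTCA and TGACC with any 3 bases between, in none, none and 7 promoters (0.0396%). The FOX motif TGTTTAC in 2.78%, 3.52% and 2.86% and the TATA box TATAAA in 8.33%, 10.6% and 10.2%, each searched on both strands. These are descriptions of the letters in these windows. Promoters of 3 genes that fell are shown with each CpG in capitals: Spdef with 7 and Hkdc1 with 9, near the median of their set, and Clcn2 with 13. All 3 lie on the minus strand of GRCm38.p6, at chr17:27728902-27729201, chr10:62422408-62422707 and chr16:20716587-20716886.
Spdef promoter: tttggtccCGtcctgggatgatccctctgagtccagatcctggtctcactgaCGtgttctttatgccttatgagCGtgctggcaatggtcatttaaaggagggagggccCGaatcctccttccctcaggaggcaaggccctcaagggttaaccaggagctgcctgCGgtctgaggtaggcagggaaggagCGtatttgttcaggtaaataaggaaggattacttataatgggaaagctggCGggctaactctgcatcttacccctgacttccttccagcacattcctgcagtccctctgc
Hkdc1 promoter: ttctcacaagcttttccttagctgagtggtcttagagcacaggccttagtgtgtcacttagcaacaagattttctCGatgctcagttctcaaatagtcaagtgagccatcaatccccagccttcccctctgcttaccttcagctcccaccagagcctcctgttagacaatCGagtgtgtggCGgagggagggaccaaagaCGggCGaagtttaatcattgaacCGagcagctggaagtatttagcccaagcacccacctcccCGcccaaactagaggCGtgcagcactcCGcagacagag
Clcn2 promoter: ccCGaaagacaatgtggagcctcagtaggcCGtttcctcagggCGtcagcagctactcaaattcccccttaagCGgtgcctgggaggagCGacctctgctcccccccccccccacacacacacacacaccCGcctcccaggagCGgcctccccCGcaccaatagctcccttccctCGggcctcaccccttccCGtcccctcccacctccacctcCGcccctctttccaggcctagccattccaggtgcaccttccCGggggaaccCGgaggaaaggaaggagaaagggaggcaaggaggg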

How the data were processed

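RNA of 29 whole mouse uteri samples was measured on 1-colour Agilent arrays (Cy3). The deposited files hold each array's spot intensity; the authors' processed intensity was already background-subtracted by Agilent Feature Extraction 9.5, per the submitters' processing notes and the file headers. From it, log2 intensity minus the array's 75th percentile was computed here, control spots and flagged outliers were left out, and spots of a probe were averaged. A gene was read from its brightest probe and tested where that was well above background on at least 3 arrays. limma 3.58.1 (R 4.3.3) fitted 8 group means, and the averaged contrast was tested with Benjamini-Hochberg adjustment at 0.05. Where all arrays of a group were not well above background, folds are bounds against the lowest signal well above background. No bound is given where this held for both exposures on the same day. Arrays of one group correlated at 0.959 to 0.995, and their number limits the precision. Gene symbols came from RefSeq for 17871 of 23349 tested genes. Named genes were the 12 largest rises and 12 largest falls with 1 sign on all days (RefSeq symbols other than clone or RIKEN codes, at least 3 arrays of each exposure above background), genes without overlap on any day, called genes at a bound, called neighbours, called list members and a set of key genes. Some of these are not reported here. Others were named after their values were seen. The members and lists were chosen with earlier results of these data known. The fit was checked on simulated data.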

Additional observations from a re-analysis of the deposited data

Results flagged for a closer look

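In groups of 4 arrays, 1 array was called apart where its gap to the next array exceeded Dixon's 95% critical share of the group's range. This was met in 2 of 50 groups examined, and chance alone flags about 1 in 20. Sp5 read -2.396 on the fourth GD4.5 GEN array, above -4.182 on the next, with a gap of 0.847 of the range. Hkdc1 read -1.878 on the fourth GD5.5 CON array, above -2.649 on the next, with a gap of 0.863 of the range.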

How the results depend on the processing

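The count of 243 called genes was 135 with normexp background correction (71 higher, 64 lower), 837 with array weights, 136 with an added 2-fold threshold, 111 without GD1.5, 73 without GD3.5, 122 on GD1.5 and GD3.5 only and 21 on GD4.5 and GD5.5 only. Those with 1 sign on all days were 107, 626, 103, 73, 121 and 21 under normexp, array weights, without GD1.5, without GD3.5, and on the first and last pair of days. Genes that differed between days numbered 27 with normexp, 349 with array weights, 2 with only probes above background on all arrays, 3 with an intensity trend, 3 without GD1.5, 2 without GD5.5 and 1 on the first pair of days. Genes without overlap numbered 3 with normexp, 13 without GD1.5, 20 without GD3.5, 19 without GD4.5 and 60 without GD5.5, and 471 and 30 on the first and last pair of days. Neighbour groups numbered 7 with normexp, 3 with the replicate block, 66 with array weights, 7 with 1 common effect, 6 without GD1.5, 3 without GD3.5, 3 and 1 on the pairs of days, 5 at 50 kb and 23 with any name. List members called numbered 40 with array weights, 15, 8 and 15 without GD1.5, GD3.5 and GD4.5, and 13 and 4 on the pairs of days. Without single arrays the 6 counts ranged from 166 to 350, 148 to 294, 0 to 23, 8 to 16, 7 to 22 and 16 to 29; 23 genes differed between days without the fourth GD5.5 GEN array, and 16 list members were called without the first GD3.5 CON array. With replicate number as a block, 177 genes were called; same-numbered samples correlated at -0.24 to 0.513 in 13 pairs, 5 of them over 0.1, among these all 4 of GD5.5 (0.214 to 0.513), so the numbers were not taken to pair samples over the 4 days. With normexp, Sftpc, Zfp395 and 5031434C07Rik reversed, to 0.1225, 0.1898 and 0.01593. The causes were not tested. Of 61 called named genes, 44 kept the call without any single array and 4 under every alternative run. Genes near background are limited by their signal.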

Other observations

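Several called genes on no list, picked after their values were seen, encode regulators. The nuclear receptors Nr1h4, the bile acid receptor, and Nr1i2, the pregnane X receptor, averaged -1.37 and -1.25 (limma adjusted p = 0.00287 and 0.00574), and Nr1i2 was well above background on 2 of 15 GEN and 10 of 14 CON arrays. Nlrp6, an inflammasome sensor, averaged -1.96, and the heparan sulfate sulfotransferases Hs3st3a1 and Hs3st3b1 averaged -1.34 and -0.94. Slc6a4, the serotonin transporter, was higher by 0.89, 0.77, 0.93 and 0.83 on the 4 days in order, averaging 0.85 (SE 0.151, adjusted p = 0.00349). Vegfc, a lymphatic growth factor, averaged 0.37 (adjusted p = 0.00235).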
